A study of Mus musculus with 9 samples.

Results

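The genes described here are 10 known transcriptional targets of the FOXO factors: Fbxo32, Trim63, Gadd45a, Irs2, Bcl6, Sesn1, Sesn3, Ccng2, Pik3ip1 and Tsc22d3. They were chosen by symbol as known FOXO targets, with earlier results of these data in view, and all 10 were found among the 53465 gene rows of the count data. RNA was sequenced from the infarct border zone of hearts of NOD-SCID mice, a strain with an immunodeficient background, in 3 groups of 3 libraries. The sham group had surgery without closure of a vessel. In the ligation group a coronary artery was tied off, and in the cell group the artery was tied off and cells named FOXO3-GE-MPCs were implanted. The sham samples carry the same region label as the infarcted ones. Age, sex, the time after surgery, the origin of the implanted cells and any treatment of the ligation group other than the ligation are not given in the sources used here. For cell replicates 2 and 3 the tissue source entry gives a different FOXO number, whereas title and treatment name FOXO3 for all 3 libraries, which was followed. The groups hold no ligated hearts that received unmodified cells, so the cells and their modification cannot be told apart.

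FOXO factors are forkhead transcription factors that insulin and growth factor signalling keep out of the nucleus, through phosphorylation by AKT. When that signal is low, or when cells are under oxidative stress, they enter the nucleus and raise genes for protein breakdown, growth arrest, stress defence and feedback on insulin signalling. In heart and skeletal muscle their best known outputs are the ubiquitin ligases Fbxo32 and Trim63, which mark muscle proteins for degradation. None of these genes answers to FOXO alone. Tsc22d3 and Trim63, for example, are also induced by glucocorticoids, and Gadd45a and Sesn1 by p53. The FOXO3 named on the labels is carried by the implanted cells, while the counts are of RNA from the whole border zone tissue.

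FOXO proteins bind DNA at the core GTAAACA, and a related core, CAAAACA, lies in the insulin response element. Both cores were searched for on both strands in RefSeq promoter windows (build GRCm38.p6) that run from 250 bases before a transcription start to 50 bases after it. Neither core contains the other. Of the 10 genes, 9 had at least 1 window and 13 windows were found in all. Fbxo32 had 0 windows, so its promoter was not searched. GTAAACA was found for 2 genes, Trim63 and Sesn1, and CAAAACA for 2 others, Irs2 and Ccng2. Over all 32851 windows, 3.65% held GTAAACA and 6.28% held CAAAACA, and of all genes with a window, 4.05% and 7.20% had at least 1 match. The stretches with a match are shown so that the letters around it can be read. The match is in capitals, and TGTTTAC and TGTTTTG are the same cores read on the other strand. The Trim63 stretch is the whole part before the start, with the match 188 bases upstream (chr4:134314870-134315119, plus strand). The Sesn1 match begins at base 23 of the transcribed part of the first of 2 windows (chr10:41810586-41810612, plus strand). The Irs2 match lies 31 bases upstream of the start (chr8:11008930-11009016, minus strand) and the Ccng2 match 10 bases upstream (chr5:93267507-93267572, plus strand). Starts are those of RefSeq. A match describes the letters only.
Trim63: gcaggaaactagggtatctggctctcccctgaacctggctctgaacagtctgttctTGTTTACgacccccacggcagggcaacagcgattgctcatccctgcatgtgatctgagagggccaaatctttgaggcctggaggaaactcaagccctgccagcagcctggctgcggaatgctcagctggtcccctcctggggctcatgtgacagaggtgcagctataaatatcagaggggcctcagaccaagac
Sesn1: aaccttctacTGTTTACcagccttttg
Irs2: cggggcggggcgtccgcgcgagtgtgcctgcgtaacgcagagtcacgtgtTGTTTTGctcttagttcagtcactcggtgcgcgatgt
Ccng2: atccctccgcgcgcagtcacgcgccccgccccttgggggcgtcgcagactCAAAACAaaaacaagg

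Libraries held 4549268 to 7515052 gene counts, the fewest in ligation replicate 1 and the most in ligation replicate 3. Levels are given as CPM (reads of a gene relative to the library total). TMM scaling, which sets libraries on a common scale by their typical gene, was applied, and 3 counts correspond to 0.375 to 0.639 CPM. The column headers of sham replicates 1 and 2 share a name stem, as do those of ligation replicates 2 and 3. Their counts differed by more than sampling noise, but the sources used here do not say whether they came from separate animals. P-values therefore measure the spread between these libraries, which may be partly technical. In bulk tissue, fewer cells of a type and less RNA per cell cannot be told apart. Cardiomyocyte markers summed to 61112 to 62518 CPM in sham, 45343 to 47513 in ligation and 45429 to 46345 in the cell group, all 10 listed genes being detected in every group. Markers of T and B lymphocytes, which this strain lacks, were near the detectable level, with sums of 0.993 to 3.62 CPM over all libraries and Cd3d and Ms4a1 at 0 counts in all groups.

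After ligation most of these genes stood higher. Of the 10 genes, 7 rose and 1 fell between sham and ligation at an adjusted p under 0.05 (edgeR quasi-likelihood test, adjusted over all 13825 tested genes), and all 10 had passed the filter on low counts. Of all tested genes 38.2% passed in this comparison, 20.1% higher and 18.0% lower. The ranges of sham and ligation did not overlap for 8 of the 10 genes and for 47.6% of all genes. The median log2 fold change of the 10 was 0.53, against 0.01 over all tested genes. The largest rises were in Irs2, Fbxo32 and Tsc22d3, each about 1 on the log2 scale, and the fall was in Gadd45a. Fewer of the 10 genes passed between cells and ligation. In the cell group 2 of the 10 rose and 1 fell against ligation, with a median of -0.07, where 9.87% of all tested genes passed, 4.19% higher and 5.69% lower, and the median of all genes was 0.00195. Irs2 and Trim63 rose and Pik3ip1 fell. The ranges of cells and ligation did not overlap for 5 of the 10 genes and for 27.2% of all genes. Against sham, 8 of the 10 were higher in the cell group and 0 were lower, with a median of 0.39, where 40.9% of all tested genes passed, 21.0% higher and 20.0% lower. At an unadjusted p under 0.05 the number that passed there in edgeR was also 8. DESeq2 found 8 higher and 0 lower in cells against sham, 7 higher and 0 lower in ligation against sham, and 2 higher and 0 lower in cells against ligation, so neither fall passed in it. The ranges of cells and sham did not overlap for 7 of the 10 genes and for 49.8% of all genes.

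Fibroblast markers summed to 2317 to 2375 CPM in sham, 4307 to 4401 in ligation and 4017 to 4126 with cells, all 10 being detected in each group. Against sham 7 of the 10 rose and 1 fell in ligation, and 7 rose in the cell group, while against ligation 2 fell with cells. Fbxo32, Tsc22d3, Sesn1 and Sesn3 were likewise higher in both ligated groups than in sham, and the part of fibroblasts in these results was not tested.

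The comparisons share libraries, the ligation group entering with opposite signs in the first and second, so their values are set side by side and not related to each other. Scaling matters for the counts. With library totals in place of TMM the median of all genes moved to 0.20 in ligation against sham, to -0.03 in cells against ligation and to 0.15 in cells against sham. Among all genes past the threshold the share that was higher moved from 52.7% to 78.7%, from 42.4% to 32.0% and from 51.2% to 73.1%. With that scaling 9 of the 10 genes passed after ligation, all 9 of them higher, where 6312 of the 13825 tested genes passed against 5277 with TMM, and the changes below are relative to the typical gene as TMM sets it.

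**Figure D1:**
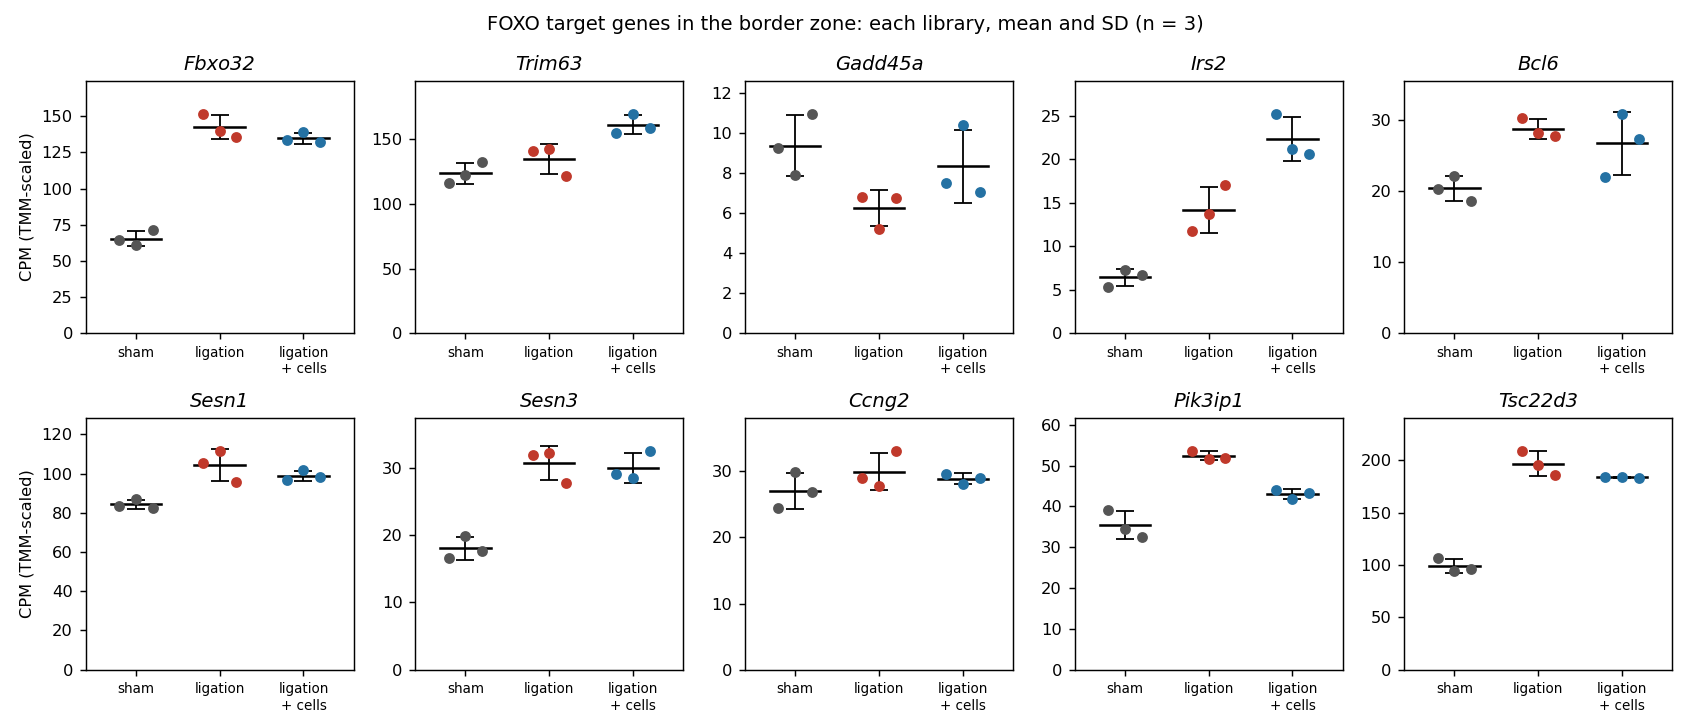
Level of each of the 10 genes in TMM-scaled CPM (linear axis from 0) for the sham, ligation and cell groups. Points are the 3 libraries of a group, the line is their mean and the bar is the SD. Fbxo32 and Tsc22d3 stand apart from sham in both ligated groups, Irs2 steps up from group to group, and Trim63 is highest in the cell group.

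**Figure D2:**
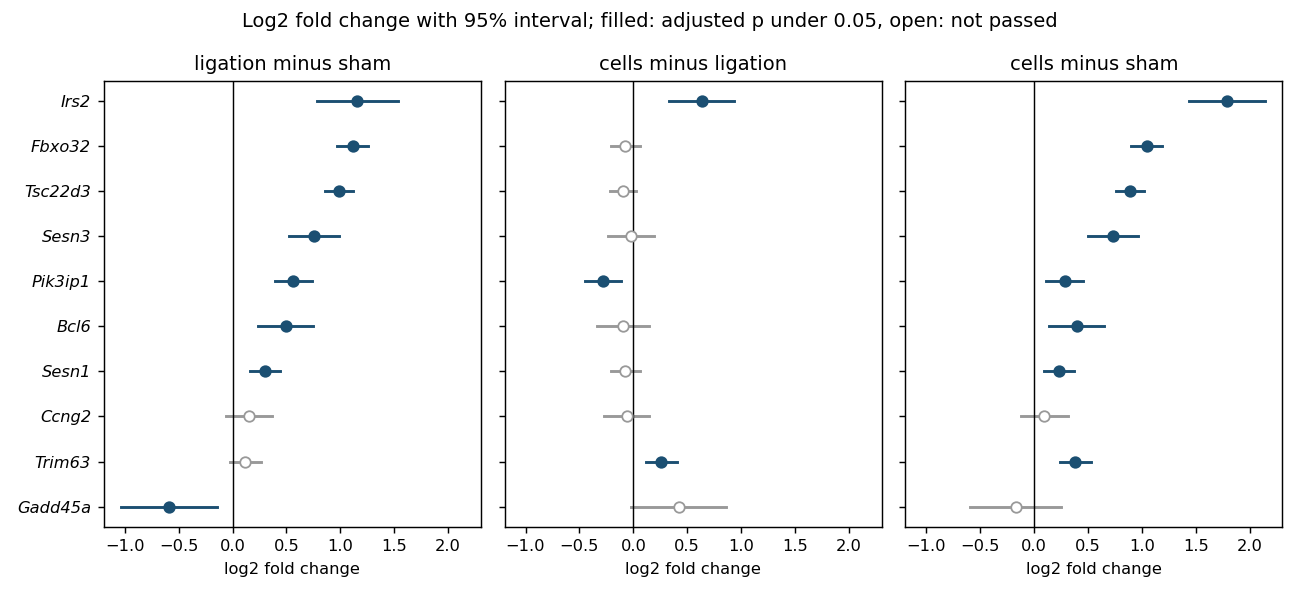
Log2 fold change (x axis) of each gene in the 3 comparisons, with its 95% interval from the edgeR fit. Filled points passed an adjusted p of 0.05 and open points did not. In ligation minus sham 8 points are filled, in cells minus ligation 3, and in cells minus sham 8.

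Levels between genes are compared as CPM per kb of exon, since longer transcripts collect more reads. Trim63 had the highest level in sham, at 43.6 ± 2.87 CPM per kb (SD, n = 3). Tsc22d3 at 22.8 ± 1.46 and Sesn1 at 21.2 ± 0.588 CPM per kb followed, and their ranges overlapped. Fbxo32 was at 9.38 ± 0.781 and Pik3ip1 at 8.29 ± 0.792 CPM per kb, again with overlapping ranges. Gadd45a and Ccng2 lay near 5 CPM per kb, overlapping each other, and Bcl6 was below them at 3.03 ± 0.261. Sesn3 at 1.18 ± 0.113 and Irs2 at 1.02 ± 0.155 were the lowest pair, and their ranges overlapped. In ligation Tsc22d3 reached 45.4 ± 2.73 CPM per kb and overlapped Trim63 at 47.5 ± 4.13. In the cell group Trim63 at 56.8 ± 2.64 was apart from Tsc22d3 at 42.3 ± 0.151 CPM per kb. Irs2, at 3.54 ± 0.399 CPM per kb in the cell group, no longer overlapped Sesn3 at 1.97 ± 0.145 and overlapped Bcl6 at 3.98 ± 0.661.

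The muscle ubiquitin ligases differed in their response. Fbxo32 (ENSMUSG00000022358, atrogin-1, which joins muscle proteins to a ubiquitin ligase complex; mm10 chr15:58175879-58214932) rose after ligation and stayed high with cells. It was at 64.1, 60.8 and 71.4 CPM in sham replicates 1 to 3, at 152, 139.9 and 135.5 in ligation and at 133, 139 and 132 in the cell group. All 6 libraries of the ligated groups were above all sham libraries, and the ligated groups overlapped each other. The log2 fold change was 1.12 in ligation against sham (SE 0.0690, edgeR adjusted p 5.96e-11) and 1.04 in cells against sham (edgeR adjusted p 1.46e-10). Between cells and ligation it was -0.07, with a 95% interval from -0.21 to 0.06 (edgeR adjusted p 0.554). This rise went with a lower sum of cardiomyocyte markers in the same libraries. Markers of skeletal muscle, the other tissue rich in Fbxo32, summed to 4.98 to 8.07 CPM in sham, 12.0 to 16.6 in ligation and 2.41 to 4.32 with cells. Of the 4 of these 10 markers that were tested, 2 rose after ligation, Pvalb and Tnnt3, and 3 fell with cells against ligation. Myh4 was at 0 counts in all sham and cell libraries, and Myod1 in all ligation and cell libraries. The part of these cells in the Fbxo32 result was not tested.

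Trim63 (ENSMUSG00000028834, MuRF1, a ligase bound to the sarcomere that targets thick filament proteins; mm10 chr4:134315120-134329629) was highest in the cell group. Its level was 117, 122 and 133 CPM in sham, 141, 143 and 121.5 in ligation, and 155, 169.8 and 159 in the cell group. Sham and ligation overlapped, and all cell libraries were above all others. Trim63 rose in cells against ligation by 0.26 on the log2 scale (SE 0.0682, edgeR adjusted p 0.0167) and in cells against sham by 0.38 (edgeR adjusted p 0.000148). Ligation against sham gave 0.12, with a 95% interval from -0.03 to 0.27 (edgeR adjusted p 0.191), and 0.31 with library totals alone (edgeR adjusted p 0.000876). Without ligation replicate 3 the difference between cells and ligation was 0.19 (edgeR adjusted p 0.124), and without cell replicate 2 it was 0.22 (edgeR adjusted p 0.0780), so that call rests on these libraries.

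The ratio of Fbxo32 to Trim63 within a library, per kb, does not depend on the scaling. It was 0.215 ± 0.0114 (SD, n = 3) for sham hearts, 0.431 ± 0.0282 after ligation and 0.341 ± 0.00799 with cells, and no group overlapped another. Each pair of groups gave an exact two-sided permutation p of 0.1, the smallest that 3 against 3 libraries allow (0.133 after Benjamini-Hochberg adjustment over 12 tests of 4 ratios, which were chosen with the values known).

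Among the genes that act on insulin and PI3K signalling, Irs2 (ENSMUSG00000038894, an adaptor that passes the signal of the insulin and IGF-1 receptors to PI3K; mm10 chr8:10984681-11008458) was higher in each successive group. It was at 5.34, 7.25 and 6.67 CPM in sham, 11.7, 13.7 and 17.0 in ligation and 25.2, 21.2 and 20.6 in the cell group. No group overlapped another, although the values rest on only 30 to 178 counts per library. The log2 fold change was 1.16 in ligation against sham (SE 0.180, edgeR adjusted p 2.90e-05), 0.63 in cells against ligation (SE 0.146, edgeR adjusted p 0.00671) and 1.79 in cells against sham (SE 0.168, edgeR adjusted p 3.21e-08). Each of these calls held in all 9 fits that left out 1 library, where the edgeR adjusted p for cells against ligation ran from 0.00345 to 0.0471. Atrial markers summed to 519 to 607 CPM in sham, 932 to 1698 in ligation and 1714 to 2303 in the cell group, with all 6 listed genes detected in each group. Of these 6, 3 rose and 3 fell after ligation, and 4 rose and 1 fell with cells. The rise of the sum after ligation was mostly that of Nppa, the natriuretic peptide of atria and stressed ventricles, which went from 107 ± 34.4 CPM (SD, n = 3) to 895 ± 369 and was at 792 ± 359 with cells. Myl7, an atrial myosin light chain, went from 157 ± 5.54 to 98.8 ± 9.67 CPM after ligation and to 299 ± 14.8 with cells. Their part in the Irs2 result was not tested.

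Pik3ip1 (ENSMUSG00000034614, a membrane protein that restrains the catalytic subunit of PI3K; mm10 chr11:3330401-3342971) rose after ligation and was lower with cells than without. Its level was 39.2, 34.6 and 32.5 CPM in sham, 53.7, 51.7 and 51.9 in ligation and 44.1, 41.9 and 43.2 in the cell group. The 3 groups did not overlap, with the cell group between the others. The log2 fold change was 0.57 in ligation against sham (SE 0.0817, edgeR adjusted p 1.22e-05), -0.28 in cells against ligation (SE 0.0782, edgeR adjusted p 0.0248) and 0.28 in cells against sham (SE 0.0825, edgeR adjusted p 0.00890). The second of these did not pass in DESeq2 (adjusted p 0.0880), nor in edgeR without any 1 of the 3 ligation or 3 cell libraries (adjusted p 0.0530 to 0.0740). The third did not pass without sham replicate 3 (0.22, edgeR adjusted p 0.0574). Macrophage markers were read in the same libraries. They summed to 773 to 835 CPM in sham, 1361 to 1390 in ligation and 559 to 570 with cells, 9 of 10 rising after ligation and all 10 falling with cells against ligation. Against sham 7 of the 10 were lower with cells and 0 were higher in edgeR and in DESeq2 (8 had an unadjusted p under 0.05 in edgeR), with a median of -0.75. Erythroid markers summed to 872 to 919, 1499 to 1599 and 663 to 680 CPM. The part of these cells in the Pik3ip1 result was not tested.

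Sesn3 and Sesn1 encode sestrins, stress-induced proteins that lower mTORC1 activity and oxidative damage, and both genes rose after ligation. Sesn3 (ENSMUSG00000032009; mm10 chr9:14275067-14333101) was at 16.6, 19.9 and 17.6 CPM in sham, 32.0, 32.3 and 27.8 in ligation, and 29.1, 28.4 and 32.6 in the cell group. Sesn1 (ENSMUSG00000038332; mm10 chr10:41809935-41908424) was at 83.5, 87.0 and 82.5 CPM in sham, 105, 112 and 95.6 in ligation, and 96.7, 102 and 98.2 in the cell group. For each gene the ligated groups overlapped each other and lay above sham. The rise after ligation was 0.76 for Sesn3 (SE 0.112, edgeR adjusted p 1.67e-05) and 0.30 for Sesn1 (SE 0.0667, edgeR adjusted p 0.00107). Cells against sham gave 0.73 and 0.23 (edgeR adjusted p 2.06e-05 and 0.00849). Cells against ligation gave -0.02 for Sesn3, with a 95% interval from -0.24 to 0.19, and -0.07 for Sesn1, with an interval from -0.21 to 0.06. The Sesn3 to Sesn1 ratio per kb went from 0.0557 ± 0.00403 (SD, n = 3) in sham to 0.0767 ± 0.00204 in ligation without overlap (exact two-sided permutation p 0.1, the smallest possible), and was 0.0792 ± 0.00683 with cells.

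Of the genes of growth arrest and DNA damage, 1 fell after ligation and 1 did not pass. Gadd45a (ENSMUSG00000036390, a small protein induced by DNA damage that acts on cell cycle arrest and stress kinases; mm10 chr6:67035096-67037457) was at 9.25, 7.91 and 11.0 CPM in sham, 6.82, 5.21 and 6.75 in ligation, and 7.52, 10.4 and 7.06 in the cell group. Ligation lay below sham without overlap, and the cell group overlapped sham only. Gadd45a fell by 0.59 on the log2 scale after ligation (SE 0.213, edgeR adjusted p 0.0344). The call rests on 48 to 69 counts per library in sham and 32 to 54 in ligation. It did not pass in DESeq2 (adjusted p 0.0616), with library totals (-0.40, edgeR adjusted p 0.134), or with the header-stem libraries summed, an alternative chosen after seeing the data (edgeR adjusted p 0.0511). It did not pass without sham replicate 1, sham replicate 3 or ligation replicate 2 either (edgeR adjusted p 0.0646 to 0.156). Cells against ligation gave 0.42, with a 95% interval from -0.02 to 0.86 (edgeR adjusted p 0.249). In the annotation 17.0% of the 31-base stretches of its transcripts also occur in other genes, the largest share among the 10, and a gene on the other strand shares 337 bases with its exons, so its counts are uncertain to that extent.

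Ccng2 (ENSMUSG00000029385, an unusual cyclin that slows the cell cycle; mm10 chr5:93267257-93276231) did not pass in any comparison. It was at 24.4, 29.8 and 26.8 CPM in sham, 29.0, 27.8 and 33.1 in ligation and 29.6, 28.0 and 29.0 in the cell group, and all groups overlapped. The 95% intervals of the log2 fold change ran from -0.06 to 0.37 after ligation, from -0.27 to 0.15 in cells against ligation and from -0.12 to 0.31 in cells against sham, so a change of 2-fold lies outside each. With library totals alone the value after ligation was 0.34 (edgeR adjusted p 0.0122).

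The transcriptional regulators rose after ligation. Tsc22d3 (ENSMUSG00000031431, GILZ, a leucine zipper protein that mediates anti-inflammatory effects of glucocorticoids; mm10 chrX:140539528-140600659) was at 106, 94.7 and 96.4 CPM in sham, 209, 196 and 186 in ligation and 184, 184 and 183 in the cell group. The ligation and cell libraries were all above sham, and every cell library was below every ligation library, by a small margin. The log2 fold change was 0.99 in ligation against sham (SE 0.0613, edgeR adjusted p 6.14e-11) and 0.89 in cells against sham (edgeR adjusted p 2.73e-10). Between cells and ligation it was -0.10, with a 95% interval from -0.22 to 0.02 (edgeR adjusted p 0.342). Of all genes 27.2% had ranges that did not overlap in that comparison, and 5 of the 10 here did.

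Bcl6 (ENSMUSG00000022508, a zinc finger repressor of inflammatory genes; mm10 chr16:23965052-23988852) was at 20.3, 22.1 and 18.6 CPM in sham, 30.3, 28.1 and 27.8 in ligation and 22.0, 30.8 and 27.2 in the cell group. Ligation was apart from sham, while cell replicate 1 fell within the sham range. Bcl6 rose by 0.49 after ligation (SE 0.123, edgeR adjusted p 0.00324) and by 0.39 in cells against sham (SE 0.123, edgeR adjusted p 0.0140). The latter did not pass without sham replicate 3 (0.33, edgeR adjusted p 0.0690) or without cell replicate 2 (0.28, edgeR adjusted p 0.0956). Cells against ligation gave -0.10, with a 95% interval from -0.34 to 0.14.

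Other FOXO targets moved in both directions, with more rises than falls in both ligated groups against sham. A list of 37 was drawn up from general knowledge, of which 35 were tested, Fasl and Igfbp1 being too low. After ligation 14 rose, 8 fell and 13 did not pass, with a median of 0.11. Of all tested genes 20.1% passed as higher and 18.0% as lower. With cells against ligation 4 rose, 4 fell and 27 did not pass, with a median of 0.01. Of all tested genes 4.19% were higher there and 5.69% lower. With cells against sham 14 rose, 7 fell and 14 did not pass, where 21.0% of all tested genes were higher and 20.0% lower. With library totals alone 18 rose and 3 fell after ligation, and in DESeq2 10 rose and 8 fell. In cells against sham library totals gave 20 higher and 4 lower, and DESeq2 gave 14 higher and 6 lower. With library totals 78.7% of all genes past the threshold were higher after ligation, and 73.1% in cells against sham. Among 10 genes of autophagy and proteolysis, 4 rose and 1 fell after ligation. Becn1, which starts autophagosome formation, rose by 0.51 and Gabarapl1, a component of the autophagosome membrane, by 0.50 (edgeR adjusted p 0.000484 and 5.00e-06). Fbxo30, a further muscle ubiquitin ligase, rose by 0.43, and Ulk2, a kinase that initiates autophagy, by 0.36 (edgeR adjusted p 0.00104 and 0.00478). In cells against ligation 0 of these 10 passed in edgeR or DESeq2, and 2 had an unadjusted p under 0.05 in edgeR. The redox list moved in mixed directions, with 2 of 5 higher and 3 lower after ligation. Sod2, Prdx5 and Prdx3, which remove superoxide and peroxides in mitochondria, had log2 fold changes of -0.36, -0.35 and -0.22, with edgeR adjusted p of 1.38e-06, 2.95e-06 and 0.00157. With library totals alone they were at -0.17, -0.17 and -0.03, and Prdx3 did not pass. The share of counts from mitochondrially encoded genes was 19.1% to 19.9% in sham, 12.5% to 13.9% in ligation and 14.3% in each cell library, and its part in these values was not tested.

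In the cell cycle and death list 4 of 11 tested genes rose and 3 fell after ligation, and 2 rose and 3 fell with cells. After ligation DESeq2 gave 2 higher and 3 lower, and library totals alone 5 higher and 1 lower. Bnip3, a mitochondrial protein of hypoxia and mitophagy, rose by 0.75 after ligation, and Tnfsf10, the death ligand TRAIL, fell by 0.95 (edgeR adjusted p 5.62e-07 and 1.78e-08). In cells against ligation Klf2 and Klf4, flow-responsive factors of endothelium, rose by 0.82 and 0.67 (edgeR adjusted p 7.49e-09 and 4.43e-07), and Cited2, a brake on hypoxia signalling, fell by 0.50 (edgeR adjusted p 8.93e-05). Endothelial markers summed to 2692 to 2814 CPM in sham, 1899 to 2014 in ligation and 2011 to 2049 with cells, and their part in these values was not tested. In the metabolic list 4 of 9 tested genes rose and 1 fell after ligation, and 1 rose with cells. That gene, Pdk4, which closes off glucose oxidation at pyruvate dehydrogenase, went from 93.6 ± 4.05 CPM (SD, n = 3) in sham and 97.8 ± 7.04 in ligation to 167 ± 2.78 with cells, a rise over ligation of 0.78 (edgeR adjusted p 2.13e-08). Pck1, which makes phosphoenolpyruvate for glucose and glycerol synthesis, was at 0.620 ± 0.234 CPM in sham, near the detectable level, and at 6.11 ± 0.687 in ligation and 5.19 ± 0.824 with cells.

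**Figure D3:**
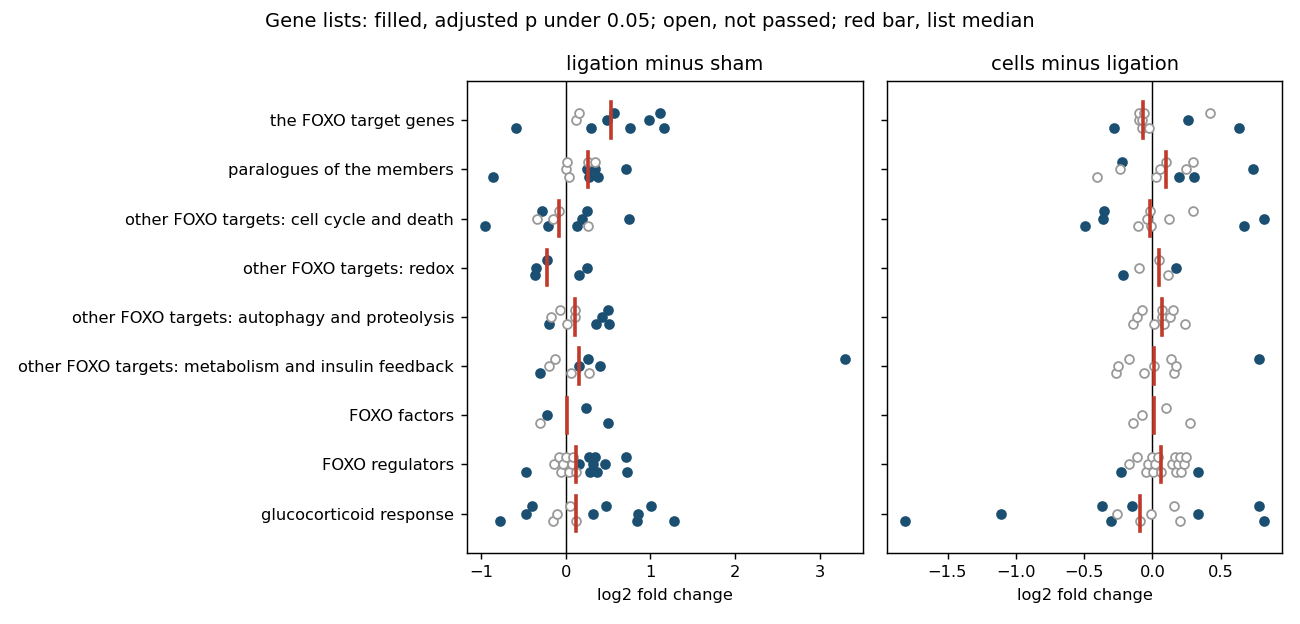
Log2 fold change (x axis, a different range in each panel) of every tested gene of each list, for ligation minus sham and cells minus ligation. Filled points passed an adjusted p of 0.05 in the edgeR fit, open points did not, and the red bar is the list median, 0.53 and -0.07 for the 10 FOXO target genes.

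The transcripts of the FOXO factors were read as well. After ligation Foxo4 rose by 0.50 and Foxo3 by 0.24, and Foxo1 fell by 0.22 on the log2 scale (edgeR adjusted p 1.78e-05, 0.00648 and 0.0478). The Foxo1 value did not pass in DESeq2 (adjusted p 0.149) or with library totals alone (-0.03, edgeR adjusted p 0.825). Foxo6 was at 1.97 to 2.45 CPM on average in each group and did not pass. With cells against ligation 0 of the 4 passed in edgeR or DESeq2, and 1 had an unadjusted p under 0.05 in edgeR. Mouse Foxo3 was at 82.8 ± 1.23 CPM (SD, n = 3) in ligation and 75.0 ± 3.08 with cells. Among 19 genes that act on FOXO, 9 rose and 1 fell after ligation, with a median of 0.13, and 1 rose and 1 fell with cells, with a median of 0.07. Stk4, the kinase MST1, rose by 0.72 after ligation, and Pdpk1, a kinase that activates AKT, by 0.46 (edgeR adjusted p 3.58e-05 and 0.000487). Sgk1, a relative of AKT that inactivates FOXO, fell by 0.47 after ligation and rose by 0.34 in cells against ligation (edgeR adjusted p 1.64e-06 and 0.000504). Pik3r1, the regulatory subunit of PI3K, fell by 0.23 in cells against ligation (edgeR adjusted p 0.0255).

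Since Tsc22d3 and the ubiquitin ligases also answer to glucocorticoids, other genes of that response were read beside them. Sgk1 stands in this list and in the one before. Of 13 tested genes 6 rose and 3 fell after ligation, with a median of 0.12, and 3 rose and 5 fell with cells against ligation, with a median of -0.09. With RLE size factors, and in DESeq2, 3 rose and 3 fell in the latter. Per1, a clock gene, was at 47.1 ± 4.77 CPM (SD, n = 3) in sham, 85.3 ± 1.80 in ligation and 84.8 ± 4.61 with cells, rising by 0.86 after ligation and by 0.85 in cells against sham (edgeR adjusted p 1.37e-08 and 1.30e-08). Fkbp5, a chaperone that restrains the glucocorticoid receptor, was at 43.0 ± 6.82 CPM (SD, n = 3) in sham, 105 ± 8.30 in ligation and 48.6 ± 1.53 with cells. Zbtb16, a zinc finger factor, was at 25.2 ± 1.71, 50.3 ± 8.48 and 14.4 ± 2.14 CPM. They rose by 1.28 and 1.01 after ligation, and with cells Fkbp5 fell by 1.11 and Zbtb16 fell by 1.81 on the log2 scale (edgeR adjusted p 2.06e-08 and 2.86e-09 for the latter). In other genes of the list the order was different. Dusp1, a phosphatase of stress kinases, and Errfi1, a brake on EGF receptor signalling, rose with cells by 0.82 and 0.78 (edgeR adjusted p 8.22e-08 and 8.65e-08). The ratio of Tsc22d3 to Fkbp5 per kb was 5.15 ± 1.22 (SD, n = 3) in sham, 4.12 ± 0.447 in ligation and 8.25 ± 0.282 with cells. The cell group was above both others without overlap (exact two-sided permutation p 0.1 for each, the smallest possible, and 0.2 for ligation against sham).

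**Figure D4:**
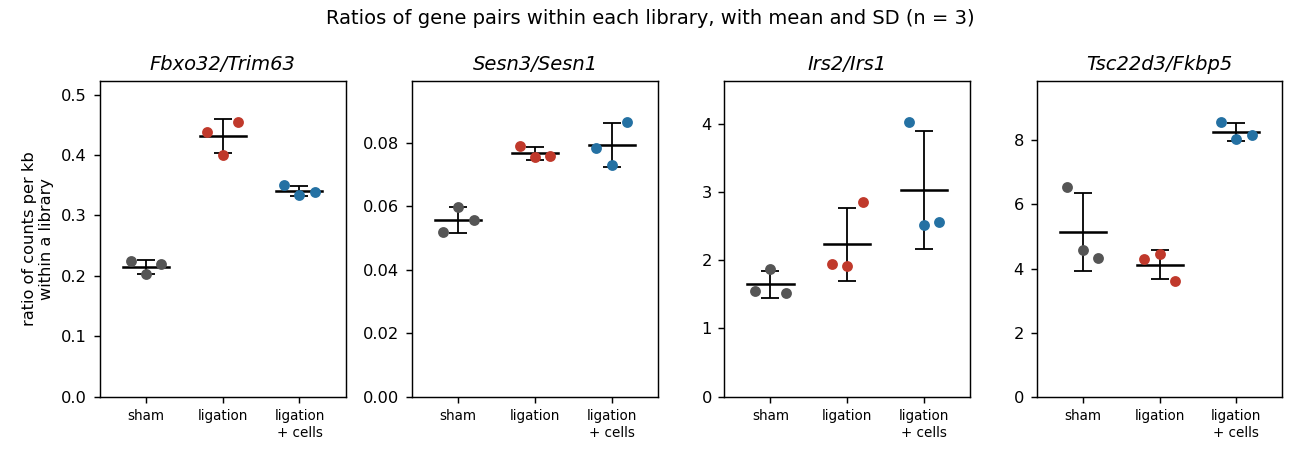
Ratios of counts per kb between 2 genes of the same library (linear axes from 0) in the 3 groups, with each library as a point, the mean as a line and the SD as a bar. Fbxo32/Trim63 is highest in ligation at 0.431, and Tsc22d3/Fkbp5 is highest in the cell group at 8.25.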

How the data were processed

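RNA-seq counts from 9 libraries were used, 3 per group. Per the labels' protocols TRIzol was used for RNA extraction and an NEBNext Ultra RNA kit for the libraries. The deposited files hold unnormalised read counts for each gene, and the submitters' processing notes name build mm10. The aligner, counter and strand setting are not given in the sources used here. Final lines named as by htseq-count, for reads outside genes (4.14% to 4.91% of reads) or in several genes (8.09% to 8.72%), were left out of library sizes and tests. Symbols came from GENCODE M21 and promoters from RefSeq.

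In R 4.3.3, edgeR 4.0.16 was run with filterByExpr, TMM and the quasi-likelihood test over all 9 libraries with 6 residual degrees of freedom, adjusting over 13825 genes (Benjamini-Hochberg). SE is the log2 fold change over the root of F. Tests were two-sided and checked on simulated data. Alternatives used other scalings and filters, DESeq2 1.42.0, limma-voom (limma 3.58.1), 2-group fits, a replicate block, left-out libraries and summed libraries.

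The genes and lists were chosen with earlier results of these data known. From each list, at most 4 genes per comparison could be named: those with the largest changes among genes past 0.05, at a mean of at least 1 CPM and without overlap. The text gives a part of these, chosen after their values were seen. Floors cover counting error only. Some single-gene values are not reported here.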

Additional observations from a re-analysis of the deposited data

Results flagged for a closer look

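Reads outside annotated genes, which no comparison used, were 4.75% ± 0.155 (SD, n = 3) of the total for ligation libraries, more than in any sham library (4.19% to 4.25%), and 4.22% ± 0.113 with cells. Annotated genes that overlap the loci of the 10 FOXO target genes had at most 6 counts in any library. With 3 libraries per group, single libraries far from their group were not looked for.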

How the results depend on the processing

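Fbxo32, Irs2, Bcl6, Sesn1, Sesn3, Pik3ip1 and Tsc22d3 kept their rise after ligation in all 19 alternatives, and Irs2 its rise with cells. Over 190 values of single genes per comparison, 181, 176 and 187 kept direction and call (in this order: ligation over sham, cells over ligation, cells over sham). With library totals the medians were 0.718, -0.0969 and 0.546, because that scaling shifts all genes. Fits without 1 library gave medians of 0.468 to 0.566, -0.103 to -0.0295 and 0.325 to 0.462. They gave 7 to 8, 1 to 3 and 6 to 8 genes past 0.05, and 1 to 2 genes higher in cells against ligation, where 4482 to 5459, 951 to 1398 and 5055 to 5746 of all genes passed. The fits with 1 gene were those without ligation replicate 3 and without cell replicate 2. In cells against ligation such fits ranged from -0.0972 to 0.0177 for Sesn3, -0.120 to 0.0288 for Ccng2 and -0.216 to 0.0230 for Bcl6, none past 0.05. The cause was not tested.

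A block for the replicate number left 7, 3 and 8 of the FOXO target genes past 0.05, Gadd45a being lost after ligation (-0.59, edgeR adjusted p 0.0504). Of all tested genes 5134 passed after ligation with the block, against 5277 in the main fit. Deviations of same-numbered libraries correlated at -0.119 to 0.0859 across genes. Differently numbered libraries were not set beside them, so a pairing by number was not tested. With libraries of a shared header stem summed, chosen after seeing the data, 7, 3 and 8 of the FOXO target genes passed. After ligation 4571 of all tested genes passed with that summing. For the block and the summing, totals over all genes in the other comparisons are not given here. The fewest counts lay behind Irs2 (30 to 178 per library) and Gadd45a (32 to 75).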

Other observations

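Relatives of the 10 genes in their own families were read from the same fit. Of 11 such genes 5 rose and 1 fell after ligation, with a median of 0.27, and 3 rose and 1 fell with cells against ligation, with a median of 0.10. With library totals alone 9 rose and 1 fell after ligation. Bcl6b, a relative of Bcl6 found in endothelium, went the other way from Bcl6 after ligation. It was at 47.1 ± 1.87 CPM (SD, n = 3) in sham, 26.1 ± 3.23 in ligation and 43.5 ± 4.45 with cells, falling by 0.85 on the log2 scale and then rising by 0.74 (edgeR adjusted p 9.44e-07 and 3.61e-05). Trim55, a sarcomeric relative of Trim63, rose with cells against ligation by 0.31, near the 0.26 of Trim63 (edgeR adjusted p 0.0160). Irs1, the relative of Irs2, rose after ligation by 0.71 and in cells against sham by 0.95 (edgeR adjusted p 0.00716 and 0.000429). The Irs2 to Irs1 ratio per kb was 1.65 ± 0.195 in sham, 2.23 ± 0.535 in ligation and 3.03 ± 0.860 with cells, the ligated groups overlapping each other (exact two-sided permutation p 0.3). Gadd45g, a relative of Gadd45a, rose after ligation by 0.35 and in cells against sham by 0.65 (edgeR adjusted p 0.0153 and 4.40e-05), whereas Gadd45a fell after ligation. Ccng1, the p53-induced relative of Ccng2, rose by 0.38 after ligation and by 0.19 with cells against ligation (edgeR adjusted p 2.61e-06 and 0.0138).

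For the 3 genes with the smallest p over all groups, the closest patterns were sought among 11145 others, by the root mean square difference of log2 CPM centred on each gene's mean over 9 libraries. Nearest to Fbxo32 were Golga4 (0.0592), C1s1 (0.0619) and Kif5b (0.0721), and among those near Tsc22d3 were Grk5 (0.0659) and Ccdc80 (0.0661). Irs2 had more distant neighbours, namely Dkk3 (0.170), Slc25a1 (0.175) and Nr4a3 (0.201). Dkk3, one of the 6 atrial markers, was at 42.6 CPM in sham, 88.9 in ligation and 136.6 with cells.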
